A study of Homo sapiens with 48 samples.

Results

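The subject is the zinc finger genes of 19q13.1, a gene-dense band of human chromosome 19, across 3 cell lines of pancreatic ductal adenocarcinoma (PDAC). Members were the protein-coding genes named ZNF plus a number, with at most 1 letter after it, whose start lay from position 30000000 to below 41000000 of chromosome 19 in the deposited count table (hg38). They were 37 of 36843 genes in the table. The RNA-seq data are 30 libraries, 3 in each of 10 groups. Cells of ASPC1 and CFPAC1 each received a control siRNA (siCTRL), an siRNA against ZNF274 (siZNF274), the solvent DMSO, or azacitidine (AZA) at 5 µM. AZA inhibits DNA methyltransferases. Panc3.27 cells carried an empty vector or a vector that overexpressed ZNF274 (OE). A second assay, CUT&RUN, in which an antibody guides a nuclease to chromatin, was made in ASPC1 only. Its samples of histone H3 trimethylated at lysine 9 (H3K9me3) are used here. Its samples with a ZNF274 antibody or control IgG were not read here. Those ASPC1 cells carried a control hairpin (shCTRL) or a hairpin against ZNF274 (shZNF274) that doxycycline at 1 µg/ml had induced for 9 days, so they were not the cells of the RNA-seq groups. Not given in the sources used here is whether the hairpin and overexpressing lines were clones or pools.

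Most genes of this kind encode KRAB zinc finger proteins. An array of C2H2 zinc fingers binds DNA, often a transposable element, and the KRAB domain recruits TRIM28 (KAP1), which brings the H3K9 methyltransferase SETDB1 and HP1 proteins. The genes lie in tandem clusters made by repeated duplication, and the clusters themselves carry H3K9me3, most of all over the 3′ exons that encode the fingers. ZNF274, itself a KRAB protein, is known for binding at 3′ ends of other zinc finger genes, where it brings in SETDB1. Among the members, ZNF146 (OZF) consists of zinc fingers without a KRAB domain, ZNF260 and ZNF507 also lack one, and ZNF536 is a repressor of neuronal differentiation genes. ZNF420 (APAK) is a negative regulator of p53, ZNF382 is a repressor known to be silenced by promoter methylation in carcinomas, and the mouse counterpart of ZNF568 represses a placental Igf2 transcript.

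Total counts ran from 31415743 to 43383141 per library, and no libraries of a group were identical. Epithelial markers KRT8, KRT18, KRT19 and EPCAM were high in all 3 lines, and the leukocyte marker PTPRC stayed at or below 0.154 counts per 1000000 counts (CPM) of the total. KRT7 was low in ASPC1 (1.40 to 15.1 CPM), and some genes listed as markers of other cells were present. Among the leukocyte markers, LYZ, which pancreatic tumour epithelium also expresses, stood at 87.1 to 286 CPM in ASPC1 and 64.7 to 92.2 in CFPAC1, and CD3E reached 1.36 in Panc3.27. Others were LUM in ASPC1 (97.4 to 145), COL1A1 in CFPAC1 (80.1 to 158) and VWF in Panc3.27 (29.99 to 57.4). In the siRNA arms no fall of the targeted gene was called. In ASPC1, ZNF274 stood at 15.8, 16.3 and 20.6 CPM in siCTRL and at 16.6, 19.2 and 22.4 in the libraries labelled siZNF274 (log2 fold change 0.15, adjusted p = 0.305). In CFPAC1 it stood at 33.5, 34.0 and 35.7 against 32.6, 34.4 and 31.5 (log2 fold change -0.07, adjusted p = 0.423). These and all later adjusted p-values are from the quasi-likelihood test of edgeR, adjusted by Benjamini-Hochberg over all tested genes, and a gene was called at 0.05. ZNF274 mRNA was thus not called lower in either line, protein was not measured in these files, and every siRNA comparison below is of libraries as labelled. In Panc3.27, ZNF274 rose from 47.4, 50.4 and 49.4 CPM with the vector to 133, 135 and 139 with OE (2.76-fold, adjusted p = 4.17e-11). The design text calls this line low in ZNF274, whereas ZNF274 averaged 13.7 ± 1.2 CPM in ASPC1 DMSO and 28.5 ± 0.45 in CFPAC1 DMSO (SD, n = 3), each on the scale of its own line. CPM values within a comparison are scaled by edgeR's TMM factors within the line. The design text speaks of biological triplicates, whereas no label states that replicates came from separate cultures. The p-values therefore reflect only the spread among these samples.

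The members are packed tightly, and many share a start. Of the 37 members, 34 matched the RefSeq promoter table (GRCh38.p14) by symbol. ZNF30, ZNF571 and ZNF781 did not. Of the 34, 13 (38.2%) started within 1000 bp of a protein-coding gene that runs the other way. The share was 9.93% over 15193 protein-coding genes and 2.75% over 182 chromosome 19 ZNF genes outside the interval. In 6 of these head-to-head pairs both genes were members, and the starts lay 22 bp (ZNF565 and ZNF146) to 328 bp (ZNF569 and ZNF570) apart. These are RefSeq starts, and for some members, such as ZNF565 and ZNF567, the count table starts the gene elsewhere. The bases between the starts of the 5 closest pairs are printed from the plus strand, because the 2 genes of a pair share them and yet did not all behave alike in ASPC1. Capitals mark CG dinucleotides, the site of DNA methylation.

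ZNF461 and ZNF567, chr19:36666838-36666933: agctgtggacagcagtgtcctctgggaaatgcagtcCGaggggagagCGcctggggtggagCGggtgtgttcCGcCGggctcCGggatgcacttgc
ZNF529 and ZNF382, chr19:36605258-36605312: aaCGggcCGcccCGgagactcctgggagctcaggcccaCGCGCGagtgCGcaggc
ZNF565 and ZNF146, chr19:36215085-36215105: gggagtgcttcctCGctctcc
ZNF790 and ZNF345, chr19:36850793-36850875: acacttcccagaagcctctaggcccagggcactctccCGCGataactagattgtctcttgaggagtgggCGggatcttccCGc
ZNF829 and ZNF568, chr19:36916292-36916331: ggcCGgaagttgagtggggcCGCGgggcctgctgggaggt

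The stretch between ZNF461 and ZNF567 holds 6 CG dinucleotides, the one between ZNF529 and ZNF382 holds 7, and the one between ZNF565 and ZNF146 holds 1. For 3 members that the results return to, the 250 bases before the start are printed on the strand of the gene. ZNF302 was expressed in all lines, ZNF570 had the largest fold in the libraries labelled siZNF274 of ASPC1, and ZNF607 was almost without counts in ASPC1. Capitals again mark CG dinucleotides.

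ZNF302, chr19:34677428-34677677, plus strand: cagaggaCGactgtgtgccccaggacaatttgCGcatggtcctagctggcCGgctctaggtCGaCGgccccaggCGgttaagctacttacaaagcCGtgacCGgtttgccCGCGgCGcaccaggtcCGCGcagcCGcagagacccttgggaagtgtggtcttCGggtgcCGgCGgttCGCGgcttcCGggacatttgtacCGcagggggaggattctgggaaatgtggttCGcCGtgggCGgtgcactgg
ZNF570, chr19:37467522-37467771, plus strand: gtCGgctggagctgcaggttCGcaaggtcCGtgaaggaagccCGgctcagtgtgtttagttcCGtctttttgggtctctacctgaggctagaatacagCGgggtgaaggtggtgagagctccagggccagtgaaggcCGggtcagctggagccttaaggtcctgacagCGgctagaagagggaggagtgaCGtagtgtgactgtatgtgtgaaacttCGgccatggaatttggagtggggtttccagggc
ZNF607, chr19:37719189-37719438, minus strand: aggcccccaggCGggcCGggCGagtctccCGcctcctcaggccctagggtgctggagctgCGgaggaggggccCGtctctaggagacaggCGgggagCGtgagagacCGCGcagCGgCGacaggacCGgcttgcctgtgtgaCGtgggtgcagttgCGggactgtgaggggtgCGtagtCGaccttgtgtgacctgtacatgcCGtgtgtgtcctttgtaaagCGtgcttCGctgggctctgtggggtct

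The ZNF302 window holds 24 CG dinucleotides, the ZNF607 window 20 and the ZNF570 window 10. The median was 18.5 over the 34 members, 18 over the 7 members with a matched promoter that were almost without counts in ASPC1, and 18 over all 15193 protein-coding genes. Motifs for 3 factors and the TATA box were searched on both strands of the 250 bases. The ETS motif CCGGAAG was in 7 of 34 members (20.6%) and in 11.97% of all promoters, and ZNF302 holds it. ZNF829 and ZNF568 count for the same letters, in the bases between their starts, so the 7 are not all separate sites. The YY1 motif AAGATGGC was in 3 (8.82%) against 1.39%, and the NRF1 motif was in 1 (2.94%) against 1.47%. No member promoter held the TATA box letters TATAAA, which were in 9.18% of all promoters. A match describes letters only.

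H3K9me3 covered most of the members in ASPC1. Cover here counts every peak called in shCTRL, in shZNF274 or in both. At least 50% of the gene body lay under the authors' broad peaks in 29 of 37 members (78.4%), where the share over all protein-coding genes was 3.66%. It was 72.7% in chromosome 19 ZNF genes outside the interval, 30.2% in ZNF genes of other chromosomes and 3.21% in the 187 other protein-coding genes of the same interval. The median member had 96.0% of its body covered, and 14 members were covered whole. ZNF507 alone had no peak, and the lowest cover among the rest was 15.4% in ZNF565, 35.9% in ZNF875 and 38.1% in ZNF146. The 2 widest peaks over members measured 481987 bp (chr19:36689199-37171185, ZNF567 to ZNF585A) and 362599 bp (chr19:37468046-37830644, ZNF569 to ZNF573), with 8 members under each. Another, of 113452 bp, lay over ZNF529, ZNF382 and ZNF461. All 3 were called in both hairpin groups and as not changed between them by the authors.

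The cover was not even along the genes. Over the 34 members with a RefSeq start, the 2 kb around the start was fully covered in 16, partly in 6 and not at all in 12, while the last 3 kb was fully covered in 29. In the 23 members that had enough counts to be tested in ASPC1 and a matched start, mean cover rose from 36.4% in the first of 20 bins along the body to 89.1% in the last. In the 7 members almost without counts in ASPC1, it was at least 85.7% in every bin and 100% in the first.

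The authors' peak calls differed between hairpins at a few members. Of 45 peaks over members, 28 were called in both groups, 13 only in shCTRL and 4 only in shZNF274. The authors called 7 of them Down in shZNF274 (15.6% of the 45, against 0.64% of all 63916 tested peaks) and 0 Up (0.383% of all). All 7 were called only in shCTRL, and they lay over ZNF302 (chr19:34681592-34687656), ZNF181 (chr19:34739349-34744050), ZNF565 and ZNF146 (chr19:36229500-36238718), ZNF383 (chr19:37222133-37224957) and ZNF875. The centre of the ZNF302 peak lay 1773 bp from the 3′ end of the gene and that of the ZNF181 peak 3679 bp from its 3′ end. ZNF875 (HKR1) had 3 such peaks, at chr19:37320802-37321520, chr19:37339223-37342631 and chr19:37354960-37361236. These are shorter than the wide domains over ZNF529, ZNF569 or ZNF570. The deposited calls carry no values per replicate.

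The clearest difference between the lines was that ASPC1 had almost no counts of many members. Of the 37 members, 9 (24.3%) stayed under 0.1 CPM of the total in all 12 ASPC1 libraries and above it in all 18 libraries of the other lines. They are ZNF599, ZNF790, ZNF345, ZNF829, ZNF568, ZNF540, ZNF571, ZNF781 and ZNF607. The same held for 2.09% of all protein-coding genes, for 12 of 209 chromosome 19 ZNF genes outside the interval (5.74%) and for 5 of the 187 other genes of the interval (2.67%). No member was low in this way only in CFPAC1 (0.175% of protein-coding genes) or only in Panc3.27 (0.571%). The level of 0.1 CPM was chosen after the values were seen, so these counts are a description with no test. In bulk RNA, fewer expressing cells and less RNA per cell cannot be told apart.

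ZNF790, ZNF571 and ZNF781 had 0 counts in all 12 ASPC1 libraries, which allows up to 0.00693 CPM over those libraries, counting error only. ZNF345 had 1 count over the 12 libraries, ZNF540 had 2, ZNF829 and ZNF607 had 3 each, ZNF568 had 4 and ZNF599 had 5. In CFPAC1 DMSO, by contrast, ZNF790 had 178, 224 and 171 counts, ZNF571 had 164, 244 and 152, and ZNF607 had 314, 387 and 308. Set against a floor of 3 counts over the ASPC1 DMSO group, CFPAC1 DMSO was at least 181-fold higher for ZNF790, 177-fold for ZNF571, 164-fold for ZNF568, 149-fold for ZNF829, 127-fold for ZNF599 and 81.6-fold for ZNF345. ZNF540 and ZNF781 are low in the other lines too, and there the bounds were 14.6-fold and 8.56-fold. The Panc3.27 vector libraries were at least 198-fold higher for ZNF571, 164-fold for ZNF790, 120-fold for ZNF345 and 114-fold for ZNF599. For ZNF829 and ZNF568 the bounds in Panc3.27 were 27.1-fold and 18.96-fold, smaller than in CFPAC1.

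ZNF850, ZNF793 and ZNF382 lay just outside the rule. ZNF850 had 8 counts over the 12 ASPC1 libraries, 4 of them in 1 library labelled siZNF274 and 4 in 1 AZA library. ZNF850 shares 13319 bp with ZNF567 on the opposite strand, yet ZNF567 was expressed in ASPC1. ZNF850 had 447, 457 and 521 counts in CFPAC1 DMSO, at least 451-fold higher. ZNF793 had 16 counts and ZNF382 had 27. The rule for the 9 members covered the treated ASPC1 libraries too. A member that a treatment raised over 0.1 CPM would have been left out. Low counts of the 9 under treatment therefore follow from the rule and are no result. Over all 9 and over 3 libraries each, they summed to 1 count in ASPC1 DMSO, 7 with AZA, 1 with siCTRL and 9 in the libraries labelled siZNF274, where the same sums in CFPAC1 were 3861, 4516, 4378 and 6076. No count of these 9 members in an ASPC1 library exceeded 2, and the rule itself keeps such counts low.

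Some of the low members shared a start. ZNF790 and ZNF345, 84 bp apart, both had almost no counts in ASPC1, and so did ZNF829 and ZNF568, 41 bp apart. Other pairs were split. ZNF529 averaged 3.25 ± 0.38 CPM (SD, n = 3) in ASPC1 DMSO on the scale of all 30 libraries, while ZNF382, 56 bp away, averaged 0.018 ± 0.031. ZNF567 averaged 3.47 ± 0.54 and ZNF461, 97 bp away by RefSeq start, 0.122 ± 0.033. In CFPAC1 DMSO, ZNF461 averaged 5.00 ± 0.45 and ZNF382 0.223 ± 0.103. All 7 of the 9 members with a matched start had the 2 kb around that start wholly under H3K9me3 in ASPC1. So did 16 of all 34 members with a matched start, and 6 of these 16 had enough counts in ASPC1 to be tested, such as ZNF529 and ZNF567. The share over all genes was not counted. ZNF790, ZNF345, ZNF829 and ZNF568 lay under the same peak of 481987 bp, and ZNF540 and ZNF607 under the same peak of 362599 bp, so the 7 are not separate domains. H3K9me3 was not measured in the other lines, so the difference between lines has no matching measure of the mark.

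ASPC1 DMSO was lower than CFPAC1 DMSO for 29 of 36 tested members (40% of all genes tested were lower) and higher for 1 (33.8% of all), ZNF302 (log2 difference 0.31, adjusted p = 0.0066). The 29 include the 9 members above, which were picked for being low in ASPC1. Among the other 27 tested, 20 were lower and 1 was higher, with a median log2 difference of -1.04. Without CFPAC1 DMSO replicate 2 the ZNF302 call was lost (0.19, adjusted p = 0.102). Over all 36 the median log2 difference was -1.43, against -0.08 over all genes and -0.71 over chromosome 19 ZNF genes outside the interval. Members at 0 counts lay below -1.43 also at their bound, so setting them there could not move the median. ZNF461 averaged 0.122 ± 0.033 CPM in ASPC1 against 5.00 ± 0.45 in CFPAC1 (log2 difference -5.32, SE 0.24). ZNF573 averaged 0.140 ± 0.026 against 4.20 ± 0.65 (-4.87, SE 0.22), and ZNF570 0.378 ± 0.175 against 9.17 ± 0.82 (-4.60, SE 0.17). ZNF569, which starts 328 bp from ZNF570, averaged 1.22 ± 0.33 against 8.09 ± 0.78 (-2.73, SE 0.15). Those not called were ZNF181, ZNF30, ZNF565, ZNF566, ZNF383 and ZNF546. Line and handling cannot be told apart across lines.

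In Panc3.27 the members almost without counts in ASPC1 were expressed, at levels that often differed from those in CFPAC1. Against ASPC1 DMSO, the Panc3.27 vector libraries were higher for 31 of 36 (41.9% of all genes) and lower for ZNF792, ZNF565 and ZNF546 (35.9% of all), with a median log2 difference of 1.83 against 0.09 over all genes. Without the 9 members picked for being low in ASPC1, 22 of 27 were higher and the median was 1.05. Of chromosome 19 ZNF genes outside the interval, 66.8% were higher (median 0.87). Of the other protein-coding genes of the interval, 63.5% were higher (median 0.69), so a higher level in Panc3.27 was not particular to the members. Without ASPC1 DMSO replicate 3, or vector replicate 2 or 3, ZNF792 was no longer called (adjusted p 0.0611 to 0.147). Against CFPAC1 DMSO the vector libraries were higher for 17 members (38.2% of all) and lower for 7 (39.5% of all), with a median of 0.07 against -0.01. The share higher was 47.2% of the members and 46.3% of chromosome 19 ZNF genes outside the interval (median 0.19). It was 65.5% of the other protein-coding genes of the interval (median 0.51). The members lower in Panc3.27 than in CFPAC1 were ZNF792, ZNF565, ZNF829, ZNF568, ZNF570, ZNF793 and ZNF546, led by ZNF568 (-3.20) and ZNF829 (-2.54), which share a start. These 3 comparisons share samples with each other.

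In ASPC1, members rose in the libraries labelled siZNF274, in which ZNF274 mRNA was not lower. Of 24 members tested, 17 were higher (21.5% of all genes were higher) and 1 was lower (24.2% of all). The median log2 fold change was 0.52 against -0.0002 over all genes. It was 0.30 over 144 chromosome 19 ZNF genes outside the interval, of which 70 were higher and 5 lower, 0.08 over ZNF genes elsewhere and 0.08 over the other genes of the interval. ZNF573 entered the test only through the siZNF274 group, in which it was higher, so its call was aided by that filter. The other 23 also passed without it. The 13 members not tested in ASPC1 are the 9 above with ZNF536, ZNF382, ZNF850 and ZNF793.

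The largest fold was that of ZNF570. It stood at 0.405, 0.361 and 0.426 CPM in siCTRL (14, 14 and 13 counts) and at 2.38, 1.69 and 2.16 in the libraries labelled siZNF274 (89, 53 and 78 counts). It rose 5.23-fold (log2 fold change 2.39, SE 0.28, adjusted p = 4.29e-06). ZNF529 stood at 3.24, 3.04 and 3.73 CPM against 10.0, 10.5 and 10.8, and the groups were far apart. The fold was 3.13 (1.65 on the log2 scale, SE 0.12, adjusted p = 1.55e-08), the smallest adjusted p among the members. ZNF461 stood at 0.376, 0.412 and 0.262 CPM against 1.07, 0.988 and 0.746 (2.62-fold, SE 0.30 on the log2 scale, adjusted p = 0.00131). ZNF461 is known as a gonadotropin-inducible repressor, and here it rested on few counts.

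The next members were ZNF573 and ZNF569. ZNF573 rose from 0.203, 0.232 and 0.262 CPM to 0.615, 0.573 and 0.608, from 7, 9 and 8 counts to 23, 18 and 22 (2.57-fold, SE 0.30 on the log2 scale, adjusted p = 0.00149). ZNF569 rose from 1.80, 1.06 and 1.28 to 3.21, 2.74 and 2.71 CPM (2.10-fold, SE 0.22, adjusted p = 0.00084). Its groups did not overlap, although siCTRL replicate 1 was above the other 2 controls. ZNF569 and ZNF570 overlap over 1691 bp. ZNF585A stood at 4.20, 2.55 and 2.42 CPM against 6.39, 5.73 and 5.89 (1.96-fold, adjusted p = 0.000208), with the same control replicate high. ZNF585B, its near copy, stood at 9.24, 7.71 and 8.88 against 13.8, 13.3 and 14.0 (log2 fold change 0.67, adjusted p = 9.37e-06). Counts of the 2 copies may be split by the counting, and ZNF585A also overlaps ZNF420 over 23635 bp. The protein-coding entry CTC-454I21.3, whose strand was not known here, overlaps all 66008 bp of ZNF585A and 28934 bp of ZNF585B.

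Smaller rises followed. ZNF420 stood at 1.53, 1.44 and 1.24 CPM against 2.86, 2.74 and 2.51 (1.91-fold, adjusted p = 0.000151). ZNF567 stood at 3.01, 2.94 and 2.92 against 5.11, 5.93 and 5.67 (1.88-fold, adjusted p = 2.74e-05). ZNF527 stood at 2.29, 2.22 and 2.46 against 4.15, 3.66 and 4.67 (1.80-fold, adjusted p = 0.00104). The groups were separate in all 3. ZNF260, a zinc finger protein without KRAB, stood at 12.9, 11.7 and 11.9 against 20.4, 22.2 and 19.8 (1.71-fold, adjusted p = 4.06e-06). ZNF792 stood at 2.78, 3.14 and 2.62 against 4.09, 4.27 and 4.86 (log2 fold change 0.62). ZNF302 stood at 16.7, 13.7 and 15.8 against 17.3, 17.8 and 20.5 (0.27, adjusted p = 0.0254), a small gap. ZNF875, ZNF383, ZNF181 and ZNF507 rose by 0.15 to 0.42 on the log2 scale, and the groups of ZNF507 overlapped.

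ZNF146 was the only member called lower in ASPC1. It stood at 100, 91.6 and 94.3 CPM in siCTRL against 73.8, 82.4 and 79.0 (log2 fold change -0.28, SE 0.05, adjusted p = 0.000374). Its RefSeq start lies 22 bp from that of ZNF565. In the count table ZNF565 runs from 36182276 to 36246257, and ZNF146 lies inside it. RefSeq and the count table thus place the start of ZNF565 differently. ZNF30, ZNF565, ZNF566, ZNF546, ZNF780A and ZNF780B were not called. Not given in the sources used here is the strand setting of the authors' counting. Counts of overlapping members on opposite strands therefore cannot be assigned with certainty. The same holds for members that overlap genes outside the set. Examples are ZNF781 with ZFP30 (24565 bp), ZNF607 with CTD-2528L19.4 (22818 bp) and ZNF529 with ZNF529-AS1 (21639 bp).

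In CFPAC1, 18 of 36 tested members were higher in the libraries labelled siZNF274 (11.6% of all genes were higher) and 1 was lower (13.2% of all). ZNF274 mRNA was not called lower there either. The median log2 fold change was 0.29 against -0.006 over all genes, 0.15 over 187 chromosome 19 ZNF genes outside the interval (42 higher, 4 lower) and 0.01 over ZNF genes elsewhere. Without siCTRL replicate 2 the count of higher members was 10. Members almost without counts in ASPC1 led the list here. ZNF781 stood at 0.279, 0.351 and 0.397 CPM in siCTRL (11, 15 and 15 counts) against 0.633, 0.810 and 0.696 (23, 34 and 29 counts). It rose 2.08-fold (SE 0.28 on the log2 scale, adjusted p = 0.0115), and the call was lost without siCTRL replicate 1 or siZNF274 replicate 2 (adjusted p 0.0506 to 0.0522). ZNF850 stood at 12.2, 12.1 and 14.1 CPM against 25.6, 23.7 and 23.6 (1.90-fold, SE 0.08, adjusted p = 1.09e-06), with the groups far apart.

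ZNF790 stood at 3.73, 4.52 and 5.35 CPM against 8.57, 6.53 and 8.61 (1.74-fold, SE 0.14, adjusted p = 0.000749). ZNF568 stood at 4.60, 4.31 and 4.05 against 6.94, 6.03 and 6.81 (1.52-fold, SE 0.10, adjusted p = 0.000474). ZNF829, which shares a start with ZNF568, rose by 0.51 on the log2 scale, ZNF571 by 0.42 and ZNF607 by 0.34. All of these were among the untested in ASPC1. The ZNF571 call was lost without siCTRL replicate 1 or 2, or siZNF274 replicate 1 or 3 (adjusted p 0.0684 to 0.103).

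Of the 24 members tested in both lines, 11 were called higher in both. Of all genes, 21.5% were higher in ASPC1 and 11.6% in CFPAC1. Of chromosome 19 ZNF genes outside the interval, 48.6% and 22.5% were. The shares higher in both lines were not counted, so the 11 have no background to be set against. The 11 are ZNF302, ZNF792, ZNF260, ZNF529, ZNF461, ZNF567, ZNF420, ZNF585A, ZNF527, ZNF569 and ZNF570. The 2 lines share no libraries. In CFPAC1, ZNF569 stood at 10.3, 8.31 and 8.84 CPM against 13.5, 13.1 and 13.1 (log2 fold change 0.53). ZNF570 stood at 9.65, 8.36 and 8.55 against 13.7, 11.9 and 12.4 (0.52). ZNF585A stood at 9.09, 8.01 and 8.68 against 12.9, 11.7 and 12.02 (0.51). Each of these 3 pairs of groups was separate. ZNF461 stood at 6.17, 4.50 and 5.74 against 6.89, 7.10 and 8.42 (0.45), a call lost without siCTRL replicate 2 or siZNF274 replicate 3 (adjusted p 0.0804 to 0.0902). ZNF302 stood at 15.4, 13.2 and 12.4 against 19.1, 18.0 and 16.3 (0.38). ZNF420 stood at 7.08, 6.42 and 7.23 against 9.01, 8.79 and 9.09 (0.38). The last 2 were again separate between groups.

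ZNF527 stood at 6.75, 6.04 and 6.86 CPM in CFPAC1 siCTRL against 8.76, 7.12 and 8.68 (log2 fold change 0.32). ZNF567 stood at 7.24, 6.98 and 7.47 against 8.79, 8.84 and 9.31 (0.31). ZNF792 stood at 9.60, 9.93 and 10.5 against 12.4, 12.1 and 11.3 (0.25). All 3 were separate between groups by a small margin. ZNF529 stood at 10.2, 9.74 and 10.2 against 13.4, 11.5 and 11.01 (0.25). ZNF260 stood at 35.7, 29.4 and 28.5 against 36.7, 36.1 and 37.5 (0.24), where siCTRL replicate 1 came close to the other group. ZNF146 was lower in both lines. In CFPAC1 it stood at 136, 136 and 127 against 113, 121 and 122 (-0.16, adjusted p = 0.0281), and the call was lost without siCTRL replicate 1 or 2, or siZNF274 replicate 1 or 2 (adjusted p 0.0683 to 0.138).

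The change in the libraries labelled siZNF274 was larger in ASPC1 than in CFPAC1 for 9 of 36 members by a test of the difference itself (7.37% of all genes were higher in this sense) and smaller for 0 (9.28% of all). The median difference of log2 fold changes was 0.30 against -0.001 over all genes and 0.17 over chromosome 19 ZNF genes outside the interval. The 36 include the 9 members almost without counts in ASPC1, with ZNF382, ZNF850 and ZNF793. Their ASPC1 fold changes rest on few or no counts, and a median without them was not taken. ZNF570 differed by 1.86 (SE 0.25, adjusted p = 4.34e-06) and ZNF529 by 1.38 (SE 0.14, adjusted p = 7.61e-08). ZNF573 differed by 1.09 (SE 0.31, adjusted p = 0.0135), and in CFPAC1 it stood at 3.96, 4.57 and 5.16 CPM against 4.85, 5.84 and 5.64, with overlap. ZNF567, ZNF260 and ZNF585B differed by 0.58, 0.52 and 0.47. In CFPAC1, ZNF585B stood at 20.4, 19.2 and 19.6 against 22.5, 22.7 and 22.4. ZNF461 (0.92, adjusted p = 0.0327) lost the call without any of 8 libraries, every one except replicate 2 of ASPC1 siCTRL and of CFPAC1 siCTRL and replicate 3 of both siZNF274 groups (adjusted p 0.0525 to 0.109). ZNF420 (0.54, adjusted p = 0.0235) lost it without ASPC1 siCTRL replicate 3 or siZNF274 replicate 1 (adjusted p 0.0566 to 0.0683). ZNF793 rested on 0, 0 and 0 counts in ASPC1 siCTRL against 2, 2 and 6, so no fold is given, and its call was lost without siCTRL replicate 2 or siZNF274 replicate 3 of ASPC1 (adjusted p 0.0513 to 0.0803). ZNF570, ZNF573 and ZNF461 also had large baseline differences between ASPC1 DMSO and CFPAC1 DMSO, given above.

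The ASPC1 rises can be set beside the cover of the start in ASPC1. Among members with the 2 kb at the start wholly under H3K9me3, 6 of 16 could be tested, 6 were higher and the median log2 fold change was 1.15. These include ZNF573, which passed the filter only through the siZNF274 group, and without it 5 were tested, 5 were higher and the median was 0.94. Among those partly covered, 5 of 6 were tested, 5 were higher and the median was 0.97, so the order of these first 2 sets turned on ZNF573. Among the 12 with no peak there, 6 were higher, 1 was lower and the median was 0.27. In CFPAC1, where the mark was not measured, the medians of the same sets were 0.37, 0.51 and 0.15. The members that could be tested were those with counts, the sets were formed after earlier results were known, and no test was made. The 7 peaks called Down lay over members with small changes in ASPC1, such as ZNF302 (0.27) and ZNF181 (0.31), or over ZNF146, which was lower. ZNF570 and ZNF529 lay under wide peaks called as not changed. The peak calls are of hairpin cells and the fold changes of siRNA libraries in which ZNF274 mRNA was not called lower. A link between the 2 was not tested.

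Overexpression of ZNF274 in Panc3.27 changed fewer members, and ZNF569 and ZNF570 had the smallest adjusted p-values among them. Of 36 tested, 10 were higher (19.8% of all genes) and 2 lower (17.1% of all). The median log2 fold change was 0.15 against 0.01 over all genes, and 0.11 over chromosome 19 ZNF genes outside the interval (55 higher and 11 lower of 167). ZNF569 stood at 7.10, 8.20 and 7.01 CPM with the vector against 13.6, 13.8 and 12.4 with OE (log2 fold change 0.83, SE 0.09, adjusted p = 7.78e-06). ZNF570, 328 bp away, stood at 6.60, 6.52 and 5.97 against 10.8, 9.56 and 10.8 (0.71, SE 0.09, adjusted p = 4.58e-05). Both were also called higher in the libraries labelled siZNF274 of both other lines. ZNF568 stood at 0.502, 0.593 and 0.435 against 1.14, 1.02 and 0.743 (0.92, adjusted p = 0.0189), and lost the call without vector replicate 3 or OE replicate 1 or 2 (adjusted p 0.0553 to 0.0953).

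ZNF599 rose from 3.08 ± 0.29 to 4.64 ± 0.51 CPM (SD, n = 3, log2 fold change 0.59, adjusted p = 0.00307 by edgeR). ZNF793, ZNF571, ZNF585A and ZNF383 rose by 0.34 to 0.49. ZNF850 (0.19) and ZNF875 (0.18) were called, but each lost the call without any of 5 of the 6 libraries, every one except vector replicate 1 for ZNF850 and vector replicate 2 for ZNF875 (adjusted p 0.0519 to 0.156 and 0.0543 to 0.163). ZNF780B fell from 23.9, 22.7 and 22.4 to 18.1, 19.9 and 20.5 CPM (-0.24, adjusted p = 0.0119), and its near copy ZNF780A was not called. ZNF146 was lower by a little (-0.12, adjusted p = 0.043), a call lost without vector replicate 3 or any OE replicate (adjusted p 0.0616 to 0.144). ZNF529 and ZNF260, among the members that rose in both siRNA comparisons, were not called with OE (0.15 and -0.08).

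AZA called few members. In ASPC1, 2 of 24 were higher (17.2% of all genes) and 1 was lower (18.6% of all), with a median log2 fold change of 0.06 against -0.003 over all genes. Few other ZNF genes were higher too, 6.94% of those of chromosome 19 outside the interval and 10% of those of other chromosomes. Of these 2 sets, 12.5% and 18.6% were lower. ZNF529 stood at 2.74, 3.46 and 3.09 CPM with DMSO against 4.86, 4.01 and 4.72 (0.55, SE 0.12, adjusted p = 0.00222). ZNF461 stood at 0.128, 0.141 and 0.0799 against 0.372, 0.208 and 0.284, from 5, 5 and 3 counts to 13, 8 and 11 (1.28, SE 0.42, adjusted p = 0.0273). This call was lost without AZA replicate 1 or 3 or DMSO replicate 1 or 3 (adjusted p 0.0622 to 0.109). ZNF875 was lower (-0.26, adjusted p = 0.0161) and lost the call without AZA replicate 1 or DMSO replicate 1 or 2 (adjusted p 0.0596 to 0.0829). ZNF274 itself was higher with AZA in ASPC1, from 13.7 ± 1.2 to 19.2 ± 0.8 CPM (SD, n = 3, log2 fold change 0.49, adjusted p = 0.00317 by edgeR).

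In CFPAC1, AZA raised 2 of 36 members (12.2% of all genes) and lowered 1 (13.5% of all), with a median of 0.07 against 0.005. Of chromosome 19 ZNF genes outside the interval, 7.49% were higher and 3.74% lower. Of ZNF genes of other chromosomes, 6.25% were higher and 11.25% lower. ZNF850 stood at 11.9, 11.7 and 13.8 CPM against 16.3, 16.1 and 16.9 (log2 fold change 0.40, adjusted p = 0.00203). ZNF829 stood at 4.10, 4.11 and 4.16 against 5.66, 5.71 and 5.55 (0.45, adjusted p = 0.00619). Both were separate between groups. ZNF383 stood at 10.3, 9.27 and 8.19 against 7.56, 7.67 and 7.49 (-0.29, adjusted p = 0.0338), and lost the call without any of the libraries other than DMSO replicate 3 (adjusted p 0.0791 to 0.175). With upper quartile scaling 5 members were higher and 0 lower, and over all genes that scaling moved the split from 2207 higher and 2445 lower to 2940 and 1914. The AZA change was larger in ASPC1 than in CFPAC1 for ZNF529 (difference 0.60, SE 0.15, adjusted p = 0.00505) and ZNF461 (1.32, SE 0.43, adjusted p = 0.0344), against 8.65% of all genes, and smaller for 0 members (8.66% of all). The ZNF461 difference was lost without AZA replicate 1 or 3 or DMSO replicate 1 or 3 of ASPC1, or CFPAC1 AZA replicate 2 (adjusted p 0.0508 to 0.14).

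The 2 control arms of a line differed little in the members. In ASPC1, siCTRL was higher than DMSO for 2 (15.9% of all genes), ZNF461 (log2 difference 1.58, adjusted p = 0.0084) and ZNF146 (0.16, adjusted p = 0.0307), and lower for 2 (14.2% of all), ZNF792 (-0.57, adjusted p = 0.00303) and ZNF780A (-0.27, adjusted p = 0.00885). In CFPAC1 it was higher for ZNF146 alone (0.21, adjusted p = 0.0109, 7.3% of all) and lower for none (8.22% of all). ZNF146 was thus higher in siCTRL than in DMSO in both lines, and it fell between siCTRL and the libraries labelled siZNF274, comparisons that share the siCTRL libraries. The ZNF146 difference was lost in ASPC1 without siCTRL replicate 1 or 3 or DMSO replicate 2 or 3 (adjusted p 0.052 to 0.122) and in CFPAC1 without siCTRL replicate 2 (adjusted p = 0.0599). ZNF461, highest in siZNF274, was already higher in siCTRL than in DMSO.

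The machinery that KRAB proteins recruit was followed through a list of 32 genes of corepressors, H3K9 and DNA methylation enzymes and H3K9 demethylases. In ASPC1 siZNF274 against siCTRL, 4 of the 32 were higher (12.5%, against 21.5% of all genes) and 6 lower (18.75%, against 24.2%), with a median of -0.01. Both shares were below those of all genes. The largest changes were KDM4A (-0.44), an H3K9 demethylase, CHD4 (0.34), a chromatin remodeller, the maintenance DNA methyltransferase DNMT1 (-0.34) and the demethylase KDM4B (0.33). In CFPAC1, 0 were higher (11.6% of all genes) and 6 lower (18.75%, against 13.2% of all), led by DNMT1, DNMT3B and UHRF1 at -0.29 each and TRIM33 at -0.24. With OE, 3 were higher (19.8% of all genes), among them the overexpressed ZNF274 itself, and 12 lower (37.5%, against 17.1% of all). The largest changes besides ZNF274 were UHRF1 (-0.42), KDM4A (0.35) and the methyltransferase SUV39H2 (-0.34). UHRF1 guides DNMT1 to newly copied DNA. The part of these genes in the changes of the members was not tested.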

How the data were processed

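The RNA-seq values the authors deposited are raw counts per gene. The submitters' processing notes name STAR 2.7.10b and hg38. Not given in the sources used here are the annotation, the strand setting and the program of the counting. The deposited H3K9me3 broad peak list holds positions, the groups of each call and the authors' Down or Up calls, and its deposited score is the same in every peak. The notes name MACS2, Bowtie2, featureCounts and edgeR without versions. Genes passing filterByExpr were scaled by TMM and fitted with edgeR 4.0.16 (R 4.3.3) per line, over both siRNA lines for differences between lines, and over all 30 libraries for levels between lines. Adjustment ran over all tested genes at 0.05. The code was tested on simulated data. DESeq2 1.42.0, other scalings, no filter, fewer groups and left-out libraries were alternatives. Members and lists were chosen with earlier results of these data known. Named are the 10 largest called members per direction, with per-library values for the 3 largest, those called alike in both lines and those whose change differed between lines. Replicate numbers did not pair libraries.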

Additional observations from a re-analysis of the deposited data

Results flagged for a closer look

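For 11 results the change differed between ASPC1 and CFPAC1 by a test of the difference of log2 fold changes (edgeR, Benjamini-Hochberg). In the libraries labelled siZNF274 against siCTRL, the difference was 1.86 for ZNF570, 1.38 for ZNF529, 1.09 for ZNF573, 0.92 for ZNF461, 0.58 for ZNF567, 0.54 for ZNF420, 0.52 for ZNF260 and 0.47 for ZNF585B. ZNF793 had 0, 0 and 0 counts in ASPC1 siCTRL, and its fitted difference of 4.82 is no measure of size. With AZA against DMSO the difference was 0.60 for ZNF529 and 1.32 for ZNF461, the latter on 3 to 13 counts per ASPC1 library.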

How the results depend on the processing

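Over 97 results on members and 1313 settings, 1190 kept their direction and side of the threshold, 123 lost the call and 0 turned direction. Left-out libraries gave these ranges of members higher and lower: 14 to 18 and 1 to 1 in ASPC1 siZNF274, 10 to 18 and 0 to 1 in CFPAC1 siZNF274, 1 to 2 and 0 to 1 in ASPC1 AZA, 2 to 4 and 0 to 2 in CFPAC1 AZA, 1 to 2 and 2 to 4 in ASPC1 siCTRL against DMSO, 0 to 2 and 0 to 0 in CFPAC1 siCTRL against DMSO, 7 to 9 and 1 to 2 with OE. They were 7 to 10 for the siZNF274 difference between lines, 1 to 2 for the AZA difference, 0 to 2 and 28 to 30 for ASPC1 against CFPAC1, 30 to 31 and 2 to 3 for Panc3.27 against ASPC1, and 14 to 16 and 7 to 8 for Panc3.27 against CFPAC1. Requiring a 1.5-fold change left 0 lower in ASPC1 siZNF274, 4 higher and 0 lower in CFPAC1 siZNF274, 1 and 0 in ASPC1 AZA, 0 and 0 in CFPAC1 AZA, 1 and 0 in ASPC1 siCTRL, 0 higher in CFPAC1 siCTRL, 4 and 0 with OE, 5 for the siZNF274 difference, 0 higher in ASPC1 against CFPAC1 and 10 higher in Panc3.27 against CFPAC1. Of the members higher in ASPC1 siZNF274, ZNF302, ZNF875, ZNF383, ZNF181 and ZNF507 rose by less than 1.5-fold and dropped out under that rule. Without the filter on low counts, CFPAC1 siZNF274 had 0 lower, ASPC1 AZA 1 higher, CFPAC1 AZA 2 lower, ASPC1 siCTRL 1 higher and OE 1 lower. With only the groups compared, CFPAC1 siZNF274 had 0 lower, ASPC1 AZA 1 higher, and siCTRL against DMSO 0 higher in either line. DESeq2 gave 1 higher in ASPC1 AZA, and upper quartile scaling gave 5 higher and 0 lower in CFPAC1 AZA and 1 higher in ASPC1 siCTRL. The cause of these changes was not tested. In no comparison was the correlation of same-numbered libraries over 0.1 in every pair (range -0.167 to 0.282, all positive in some comparisons), so the numbers were not taken as pairs, and a replicate block changed 1 count, the members lower with OE, to 1. Between ASPC1 and CFPAC1, the median of all genes moved to -0.109 and -0.160 with RLE and upper quartile scaling. The count of 29 members with at least 50% cover was 36 at 10% and 25 at 80%. Depth limits ZNF461, ZNF573, ZNF781 and the members at a few counts.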
